A study of Mus musculus and Homo sapiens with 4 samples.

Results

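The glutathione S-transferases GSTP1, GSTM1, GSTM2, GSTM3, GSTM4, GSTT1, GSTK1, GSTO1, GSTA4 and MGST1 were followed in the libraries that the study names VCaP and VCaP ERα. The study describes VCaP as prostate cancer cells and VCaP ERα as a derived line that stably overexpresses oestrogen receptor alpha (ERα). The 10 genes were found by symbol among the 29375 symbols of the VCaP RNA-sequencing values, each on the entry with the highest mean value. They stand on 9 of 25932 entries, because GSTM4 and GSTM2 are merged into a single entry and have no separate values. Each condition gave 1 library, at passages 5 to 6 for VCaP and 4 to 5 for VCaP ERα, prepared from total RNA after removal of ribosomal RNA, with the strand kept. As described, VCaP ERα carries the ERα plasmid on top of what the parental cells carry, and both lines were grown in the same serum-containing medium. Whether the plasmid is the only difference between the sequenced cells was not tested, and the prostate luminal genes given below differed widely between them. The study also holds 1 library each of wild-type and NEAT1 knockout (KO) mouse embryonic fibroblasts (MEFs), C57BL/6 cells from E13.5 embryos at passages 2 to 3, sequenced from poly-A RNA. With 1 library per condition there is no spread between replicates, no test was made, and every difference below is a difference between these libraries only.

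Glutathione S-transferases join the tripeptide glutathione to reactive, electrophilic compounds, which are then pumped out of the cell as conjugates. The cytosolic enzymes fall into classes named by Greek letters (alpha, mu, pi, theta, omega, zeta), GSTK1 is found in mitochondria and peroxisomes, and the membrane-bound MAPEG proteins, to which MGST1 belongs, are a separate fold. Several of the genes are induced by NRF2 (NFE2L2), the transcription factor of the antioxidant response, which KEAP1 holds in check. GSTP1, the pi-class enzyme, is made by basal cells of the normal prostate, and its promoter is commonly methylated and silent in prostate cancer cells. Whole-gene deletions of GSTM1 and of GSTT1 are common in people, so that a cell line may lack either gene.

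Values are RPKM, read numbers scaled both by entry length and by the mapped reads of each library. Differences are log2 ratios of VCaP ERα over VCaP after 1 RPKM was added to each value, and the study took a log2 ratio above 2 as upregulation. ESR1, which encodes ERα, had 15.7 RPKM (VCaP) and 209 RPKM (VCaP ERα), in the direction of the labels. The defining markers of the labelled tissue went apart: each of 12 prostate luminal genes was higher in VCaP ERα, their levels summed to 20.3 RPKM (library labelled VCaP) against 2221 RPKM (VCaP ERα), and KLK4 and FOLH1 were listed at 0 in the former. Of 12 breast luminal genes 7 were lower and 5 higher in VCaP ERα, with sums of 2472 and 938 RPKM. Single genes gave most of these sums, TFF1 with 1596 RPKM in VCaP and AGR2 with 727 RPKM in VCaP ERα. GATA3 was lower in VCaP ERα, at 90.5 and 0.633 RPKM, and AGR2 higher, at 114 and 727 RPKM. Of 6 basal epithelial genes 4 were lower in VCaP ERα, with sums of 58.7 and 4.09 RPKM; KRT14 was listed at 0 in VCaP and KRT5 was below 1 RPKM in both. The 6 stromal genes had sums of 1.49 and 1.77 RPKM. By these levels the parental library held little of the prostate luminal expression of the labelled tissue, and its identity was not tested. The prostate, breast and basal lists moved between the same 2 libraries as every VCaP difference given here, and their part in those differences was not tested. The 9754 entries with at least 1 RPKM in each library had a median log2 ratio of -0.59, and a value near it is that of the typical expressed entry.

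No member reached a log2 ratio above 2, against 2.27% of all entries, and 1 member, GSTK1, lay below -2, against 6.56% of all entries. At the looser limit of 1, 2 of the 9 entries (GSTA4 and GSTP1) lay above it, against 9.16% of all entries, and 3 (GSTK1, GSTT1 and MGST1) lay below -1, against 18.5%. Among the 13954 entries with at least 1 RPKM in either library, 4.21% lay above 2, 12.2% below -2 and 64.0% below 0. The median log2 ratio of the 9 entries was -0.19, with a range from -2.03 to 1.82, and the median over all entries was 0. The 9 entries summed to 144 RPKM in VCaP against 84.2 in VCaP ERα. GSTK1 gave 39.0% of this sum in VCaP and 15.5% in VCaP ERα, and GSTO1 gave 25.5% and 49.9%. The leading transferase by level per length was thus GSTK1 in the library labelled VCaP and GSTO1 in VCaP ERα. In VCaP the order after GSTK1 was GSTO1, MGST1, GSTM3, GSTT1, GSTA4 and the GSTM4/GSTM2 entry, with GSTP1 and GSTM1 at 0. In VCaP ERα the order after GSTO1 was GSTK1, GSTM3, MGST1, GSTA4, GSTT1, GSTP1 and GSTM4/GSTM2, with GSTM1 at 0. No replicate tells whether neighbours in these orders, such as GSTM3 and MGST1 in VCaP ERα, differ. In bulk RNA, fewer expressing cells and less RNA per cell cannot be told apart.

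**Figure D1:**
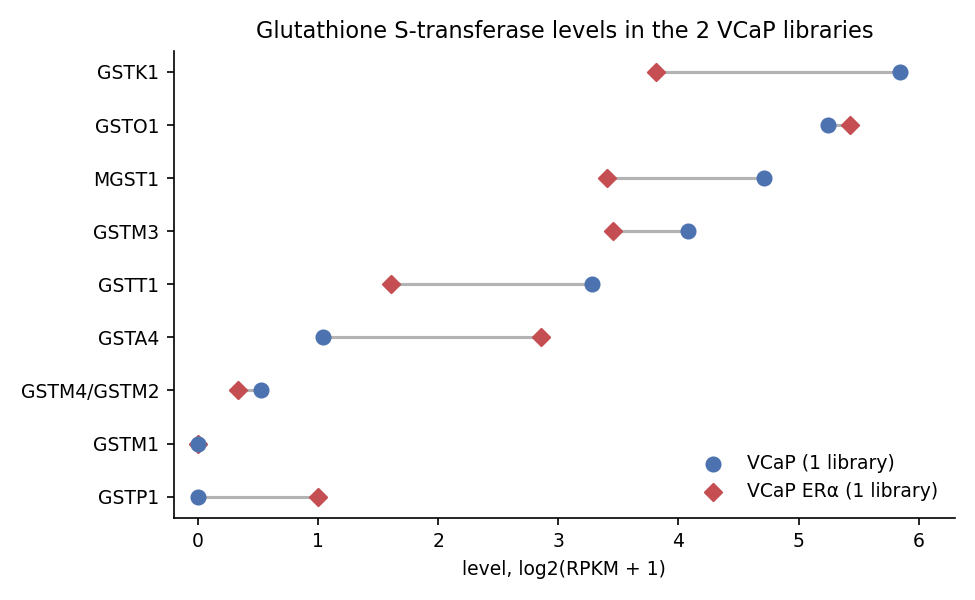
Level of each member entry as log2(RPKM + 1) on the horizontal axis, with a circle for the VCaP library and a diamond for the VCaP ERα library (1 library each, no error bars). GSTK1, MGST1, GSTM3 and GSTT1 lie further left in VCaP ERα, GSTA4 and GSTP1 lie further right, GSTO1 moves little as deposited, and GSTM1 is at 0 in both.

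GSTP1 (chromosome 11, 67107862 to 67110699) was listed at 0 RPKM in VCaP and had 1.00 RPKM in VCaP ERα. By level it ranked 11935 of 25932 entries in VCaP ERα. Its log2 ratio of 1.00 comes from a value of 0 and depends on the added 1 RPKM, so it is not a fold change. The step from a listed 0 to a low value was frequent: 8757 entries were at 0 in VCaP, of which 63.9% were above 0 and 10.7% reached 1 RPKM in VCaP ERα. An exact 0 also stood at GPX1, a broadly expressed peroxidase, in VCaP (59.3 RPKM in VCaP ERα), though at none of 20 housekeeping genes, a list drawn up after the values had been seen. Of these 20 genes 14 were lower and 6 higher in VCaP ERα, with a median log2 ratio of -0.72. In this list 3 genes lay below -2, and the lowest was ACTB at -4.19. Whether the listed 0 of GSTP1 is a low level or a failed estimate cannot be told apart.

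Within 150 kb of GSTP1 the values hold 17 other entries, with no filter on level. In VCaP 7 of them (41.2%) were listed at 0, against 33.8% of all entries: GPR152, CABP4, CABP2, C11orf72, AK129926, TBX10 and ACY3. In VCaP ERα these 7 ranged from 1.15 RPKM for TBX10 to 3.19 RPKM for CABP4, a calcium-binding protein of photoreceptor synapses, and GSTP1 had 1.00 RPKM. The nearest entries on either side were CABP2, 60.4 kb away, with 0 and 2.47 RPKM, and C11orf72, 17.4 kb away, with 0 and 1.58 RPKM. Entries of broadly expressed genes in the same window had similar levels in both libraries: NDUFV1, a subunit of respiratory complex I 20.2 kb away, had 52.2 and 35.0 RPKM, and the actin-binding coronin CORO1B had 62.5 and 52.4 RPKM. ALDH3B2, an aldehyde dehydrogenase 75.5 kb away, was the only entry of the window below -2, with 10.6 RPKM (VCaP) and 1.84 RPKM (VCaP ERα).

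**Figure D2:**
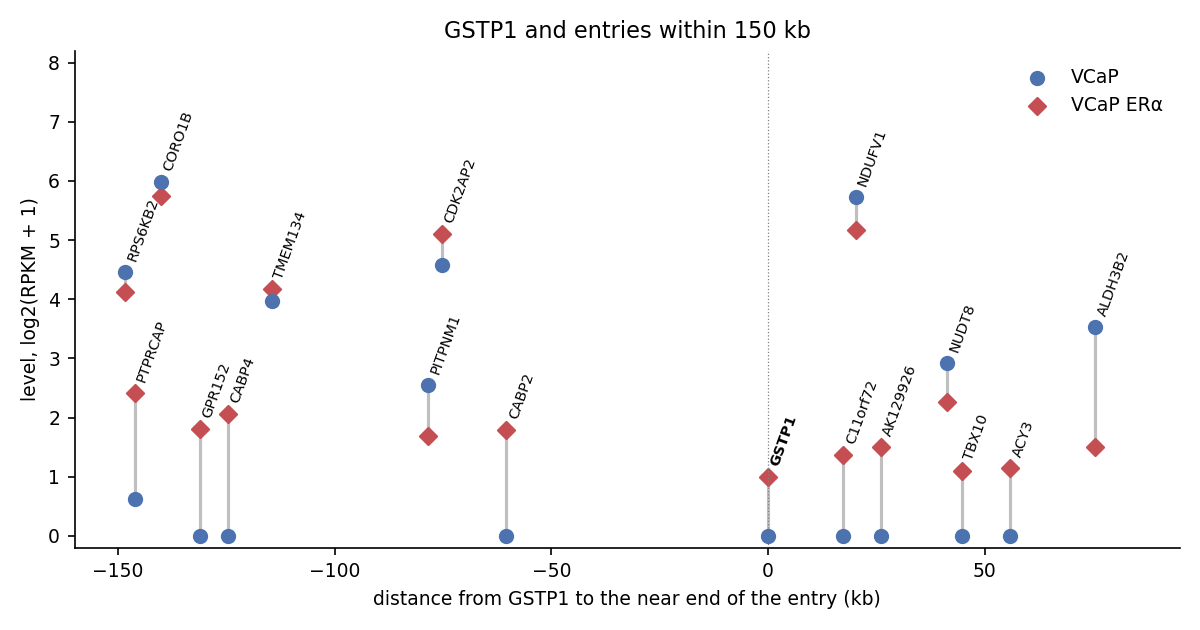
GSTP1 and 16 of the 17 entries within 150 kb of it, with the distance in kb from GSTP1 to the near end of each entry on the horizontal axis and log2(RPKM + 1) on the vertical axis, for VCaP (circles) and VCaP ERα (diamonds). GSTP1 and 7 of its 17 neighbours sit at 0 in VCaP and between 1.00 and 3.19 RPKM in VCaP ERα, while broadly expressed neighbours such as NDUFV1 are high in both.

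The depth of the libraries is not given in the sources used here, so no counting interval or limit of detection was computed. As a guide chosen after seeing the data, the product of RPKM and span in kb was examined over entries of 150 to 1500 bp with a product below 1. It recurred most often at 0.097 and 0.146 in VCaP (29 of 275 entries each) and at 0.111 (66 of 708 entries) and 0.095 (55 entries) in VCaP ERα. Whether such a step is the worth of a single read was not shown, and no depth was taken from it. The entries that share the pattern of GSTP1 most closely over the 2 libraries, by distance of log2(RPKM + 1), were ZBP1, AK127347 and DQ586641, each at 0 in VCaP and 1.00 RPKM in VCaP ERα. In all, 262 entries were at 0 in VCaP and between 0.9 and 1.1 RPKM in VCaP ERα.

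GSTA4, the alpha-class enzyme that conjugates the lipid peroxidation product 4-hydroxynonenal, was the member with the highest log2 ratio. It (chromosome 6, 52950710 to 52968099) had 1.05 RPKM in VCaP against 6.25 in VCaP ERα, a 5.93-fold difference and a log2 ratio of 1.82, which ranked 741 of 25932. With the log2 ratios centred on the median of expressed entries it reached 2.41, and after quantile normalization 2.28, past the limit of 2 in both. GSTA1, the alpha-class enzyme of liver, had 2.37 RPKM (VCaP) and 0.107 RPKM (VCaP ERα), a log2 ratio of -1.61. GSTA2, GSTA3 and GSTA5 were listed at 0 in VCaP and had 0.228, 0.156 and 0.216 RPKM in VCaP ERα. ICK, a kinase gene 6.0 kb past GSTA4, had 6.33 and 4.38 RPKM, a log2 ratio of -0.45. After centring ICK turned to 0.14, whereas GSTA1 stayed below 0 at -1.02. GSTA1, GSTA2, GSTA3 and GSTA5 are close in sequence, so their low values are uncertain.

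GSTO1, the omega-class enzyme that reduces dehydroascorbate, had nearly the same level in both libraries as deposited. It (chromosome 10, 106004668 to 106017203) had 36.8 RPKM in VCaP against 42.0 in VCaP ERα, a log2 ratio of 0.18. By rank of level it stood at 1373 in VCaP and 714 in VCaP ERα, and with centring or quantile normalization its log2 ratio was 0.77 or 0.80, further from 0 than that of GSTM3 or MGST1. Its paralogue GSTO2 begins 1.4 kb past the end of GSTO1 and had 9.76 RPKM (VCaP) and 0.765 RPKM (VCaP ERα), a log2 ratio of -2.61. GSTO2 stayed below -2 under centring (-2.02) and quantile normalization (-2.42). SLK, a kinase gene on the other side, had 7.59 and 11.5 RPKM. The adjacent omega genes therefore differed in direction between these libraries.

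GSTK1 (chromosome 7, 142670686 to 142676326) had 56.3 RPKM in VCaP against 13.1 in VCaP ERα, which is 4.31-fold lower. Its log2 ratio of -2.03 was -1.44 after centring and -1.36 after quantile normalization, so its place below -2 rested on the scaling, whereas its direction did not. The nearest expressed neighbours went both ways, TRPV6 from a listed 0 to 1.85 RPKM and TMEM139 from 1.93 to 0.151 RPKM.

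MGST1, a microsomal transferase that also reduces lipid hydroperoxides, had 25.2 RPKM (VCaP) and 9.61 RPKM (VCaP ERα) (chromosome 12, 16391343 to 16414609), a log2 ratio of -1.30. Its relatives MGST2 and MGST3 went the other way. MGST2 had 6.87 RPKM in VCaP against 23.7 in VCaP ERα (log2 ratio 1.65), and MGST3 had 7.12 and 24.2 RPKM (1.63). After centring these became 2.24 and 2.22, and that of MGST1 became -0.71. Of other MAPEG genes, LTC4S had 0.945 and 0.948 RPKM and ALOX5AP had 0.111 and 0.802 RPKM. On chromosome 12 the nearest expressed entries beside MGST1, DERA and LMO3, were lower in VCaP ERα as well, DERA with 8.84 and 3.55 RPKM and LMO3 with 2.68 and 0.0505 RPKM. MGST1 was thus the highest of the MGST genes in VCaP and the lowest in VCaP ERα.

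**Figure D3:**
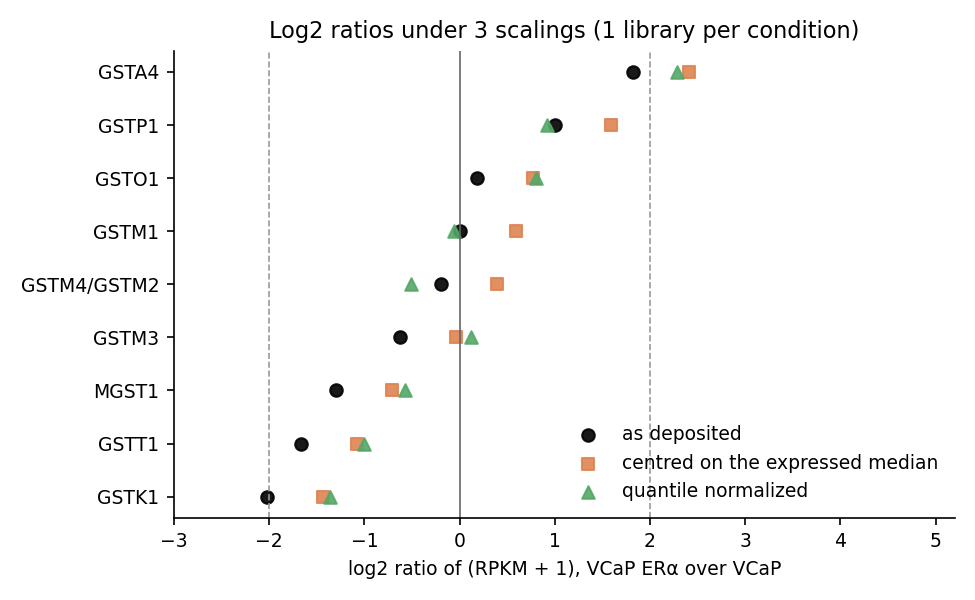
Log2 ratio of (RPKM + 1), VCaP ERα over VCaP, for the 9 member entries as deposited (circles), centred on the median of entries at or above 1 RPKM in both libraries (squares) and after quantile normalization (triangles), with dashed lines at -2 and 2. GSTK1 lies below -2 only as deposited, GSTA4 lies above 2 only after either scaling, and GSTT1, GSTK1 and MGST1 stay below 0 throughout.

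The mu-class genes lie side by side on chromosome 1, and GSTM3 was the only one of them at or above 1 RPKM. GSTM3 (110078077 to 110084656), the mu-class enzyme of testis and brain that many other tissues also express, had 15.9 RPKM (VCaP) and 9.94 RPKM (VCaP ERα). Its log2 ratio of -0.63 lay beside the median of expressed entries, at -0.04 after centring and 0.12 after quantile normalization. GSTM1 (110031965 to 110037890), the mu-class gene with the common deletion, was listed at 0 in both libraries. The merged GSTM4/GSTM2 entry (110000226 to 110027729) had 0.439 RPKM in VCaP against 0.258 in VCaP ERα, and GSTM5 was listed at 0 and had 0.492 RPKM. Because the mu genes are near-identical over long stretches, reads can be split among them or lost, and their low values are uncertain for that reason. From RNA alone a deleted and a silent GSTM1 cannot be told apart. The nearest expressed entries outside the cluster were AMPD2, with 2.69 and 1.29 RPKM, and AHCYL1, with 13.8 and 16.0 RPKM.

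GSTT1 (chromosome 22, 22706139 to 22714284), the theta-class enzyme that acts on small halogenated compounds, had 8.71 RPKM (VCaP) and 2.05 RPKM (VCaP ERα). This was 4.25-fold lower, with a log2 ratio of -1.67 that stayed below -1 after centring (-1.08) and quantile normalization (-1.01). The 2 entries of GSTT2, the neighbouring theta gene, were listed at 0 in VCaP and had 0.397 and 0.108 RPKM in VCaP ERα. On one side DDT, a tautomerase gene 54.1 kb away, had 71.2 and 128 RPKM, and on the other CABIN1, 23.5 kb away, had 5.28 and 2.53 RPKM.

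**Figure D4:**
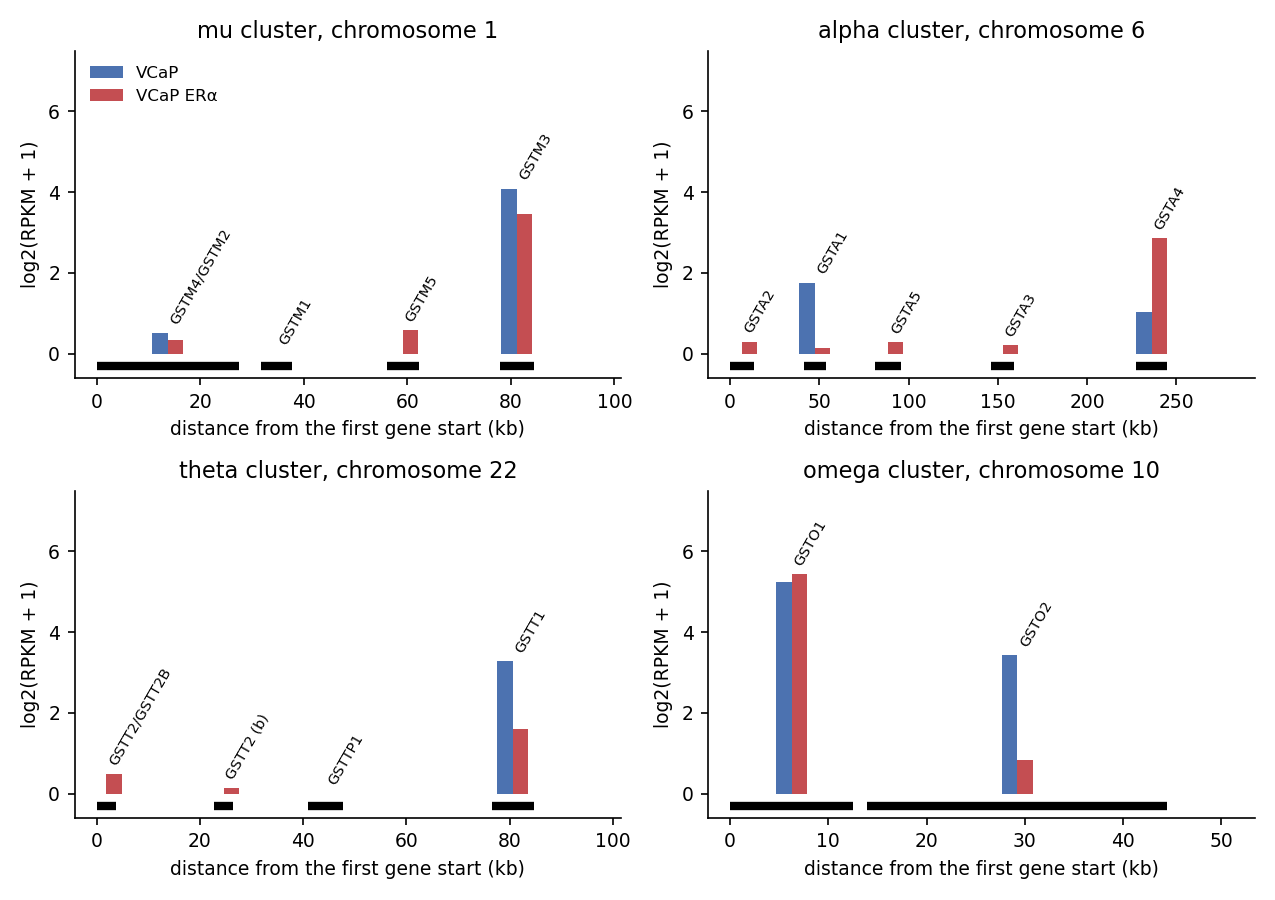
Levels as log2(RPKM + 1) of the mu, alpha, theta and omega clusters, with the distance in kb from the start of the first gene on the horizontal axis; black lines span the entries and bars stand for VCaP (left bar) and VCaP ERα (right bar). In the mu cluster only GSTM3 is high, in the alpha cluster GSTA1 and GSTA4 differ in opposite directions, and in the omega cluster GSTO1 is level where GSTO2 is lower in VCaP ERα.

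Of 17 further genes listed with the family and the MAPEG proteins, found on 16 entries, 11 were higher and 5 lower in VCaP ERα. Of the 11, 6 were listed at 0 in VCaP and had at most 0.492 RPKM in VCaP ERα. Among all expressed entries 64.0% were below 0. Of the 16 entries 0 lay above 2, against 2.27% of all entries and 4.21% of expressed entries. Below -2 lay 3, against 6.56% and 12.2%. Only 8 of the 16 reached 1 RPKM in either library. The 3 entries below -2 were GSTO2, GSTZ1 and PTGES2. GSTZ1, the zeta-class enzyme of tyrosine breakdown, had 25.1 RPKM in VCaP against 3.24 in VCaP ERα (log2 ratio -2.62), and PTGES2, a prostaglandin E synthase, had 42.4 and 7.53 RPKM (-2.35). PTGES, the inducible synthase of the same prostaglandin, had 2.73 and 3.35 RPKM (0.22), and GSTCD had 1.98 and 0.904 RPKM (-0.65). Over the members and these further entries together, 8 of 25 entries were listed at 0 in VCaP. All of these except GSTM1 had a value above 0 in VCaP ERα, from 0.0689 RPKM for HPGDS to 1.00 RPKM for GSTP1.

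Of 19 genes that make or turn over glutathione, 11 were higher and 8 lower in VCaP ERα, and the median log2 ratio was 0.28. Only 14 of the 19 reached 1 RPKM in either library, and 64.0% of all such entries were below 0. Of the 19 genes 2 lay below -2, against 6.56% of all entries and 12.2% of expressed entries. Above 2 lay 0, against 2.27% and 4.21%. After centring 5 were lower and the median was 0.87, and after quantile normalization 9 were lower and it was 0.13. The 2 subunits of glutamate-cysteine ligase, the first and limiting step, went apart: the catalytic GCLC had 8.91 RPKM (VCaP) and 5.26 RPKM (VCaP ERα) (-0.66), and the modifier GCLM had 2.88 and 6.09 RPKM (0.87). Amino acid carriers gave the lowest values, with SLC3A2, the heavy chain of the cystine and neutral amino acid exchangers, at 31.1 and 5.33 RPKM (-2.34) and the glutamine carrier SLC1A5 at 101 and 19.9 RPKM (-2.29). SLC7A11, the cystine-carrying partner of SLC3A2, had 1.27 and 2.27 RPKM (0.53). CHAC1, which degrades glutathione, had 3.10 and 0.808 RPKM (-1.18), and glutathione synthetase (GSS) had 25.0 and 12.4 RPKM (-0.96). At the other end stood the carrier SLC1A4 (0.653 and 2.58 RPKM, 1.11), CBS, the first enzyme from homocysteine towards cysteine (19.2 and 34.9 RPKM, 0.83), and GGT6, of the gamma-glutamyltransferase family (0.443 and 1.11 RPKM, 0.55).

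The 23 genes of glutathione and thioredoxin redox chemistry spread most widely, with a median of -0.74. Of these 4 lay above 2, against 4.21% of expressed entries, and 4 below -2, against 12.2%. GPX1, the ubiquitous selenoenzyme that uses glutathione to reduce hydrogen peroxide, was listed at 0 in VCaP and had 59.3 RPKM in VCaP ERα. GPX7 was listed at 0 and had 3.42 RPKM. Both GPX1 and GPX7 are among the 4 above 2. As for GSTP1, their log2 ratios start from a listed 0 and depend on the added 1 RPKM, so they are not fold changes. GPX2, the epithelial glutathione peroxidase, went the other way with 25.7 and 0.564 RPKM (log2 ratio -4.09). Enzymes that supply NADPH also differed in direction. ME1 had 27.5 RPKM in VCaP against 2.02 in VCaP ERα (-3.24) and PGD had 68.3 and 19.2 RPKM (-1.78). IDH1, the cytosolic isocitrate dehydrogenase, had 55.3 and 477 RPKM (3.08). Thioredoxin (TXN) had 90.6 and 402 RPKM (2.14), and glutathione reductase (GSR) had 21.6 and 6.09 RPKM (-1.67). HAGH, which frees glutathione from its lactoyl ester, had 29.9 and 5.84 RPKM (-2.18).

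The NRF2 axis, as listed here with earlier results known, was mostly lower in VCaP ERα. Of its 20 genes on 19 entries, 18 entries were lower and 1 (BACH1) higher, beside 64.0% of expressed entries below 0. Of these 19 entries 9 lay below -2, against 12.2% of expressed entries, and 0 above 2, against 4.21%. The median log2 ratio was -1.41. After centring 16 entries were below 0 and 4 below -2, and after quantile normalization 15 and 5. NQO1, the quinone reductase used as the standard readout of NRF2, had 241 RPKM (VCaP) and 2.23 RPKM (VCaP ERα), which is 108-fold lower (-6.22). AKR1C2, an aldo-keto reductase that also acts on androgens, had 37.2 and 0.0771 RPKM (-5.15). A merged entry of its relatives AKR1C1 and AKR1C3 had 3.49 and 0.683 RPKM (-1.41), and reads shared among these genes were not measured. The ferritin heavy chain FTH1 had 812 and 73.4 RPKM (-3.45) and transketolase (TKT) had 142 and 12.9 RPKM (-3.35). NFE2L2 itself had 13.8 and 5.74 RPKM (-1.14), and KEAP1 had 43.0 and 6.37 RPKM (-2.58). BACH1, a repressor at the same promoter elements, had 5.56 and 9.79 RPKM (0.72). The next highest of the list were MAFF (1.24 and 1.18 RPKM), EPHX1 (14.1 and 9.73 RPKM) and MAFG (6.86 and 3.89 RPKM). Among the members GSTK1, MGST1, GSTT1, GSTM3 and the GSTM4/GSTM2 entry were lower too, the direction of 64.0% of expressed entries. GSTA4, GSTO1 and GSTP1 were higher. A link between the members and this list was not tested.

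Of 9 conjugate exporters 7 were lower in VCaP ERα and 2 (ABCC4 and ABCC6) higher, beside the 64.0% of expressed entries below 0. After quantile normalization 6 were lower. Of the 9 genes 8 reached 1 RPKM in either library. As deposited, 1 of the 9 lay below -2, against 6.56% of all entries and 12.2% of expressed entries. Above 2 lay 0, against 2.27% and 4.21%, and the median was -1.23. ABCC2, an apical pump for glutathione conjugates, had 11.8 RPKM in VCaP against 0.194 in VCaP ERα (-3.42), ABCC1 had 9.95 and 2.34 RPKM (-1.71), ABCC5 had 9.10 and 1.65 RPKM (-1.93) and ABCC3 had 4.04 and 0.730 RPKM (-1.54). ABCC4, which exports cyclic nucleotides and prostaglandins and is abundant in prostate, had 11.9 and 47.0 RPKM (1.89), and ABCC6 was listed at 0 and had 0.472 RPKM. Between these stood ABCC10 (3.75 and 1.74 RPKM) and ABCG2 (2.37 and 0.431 RPKM).

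**Figure D5:**
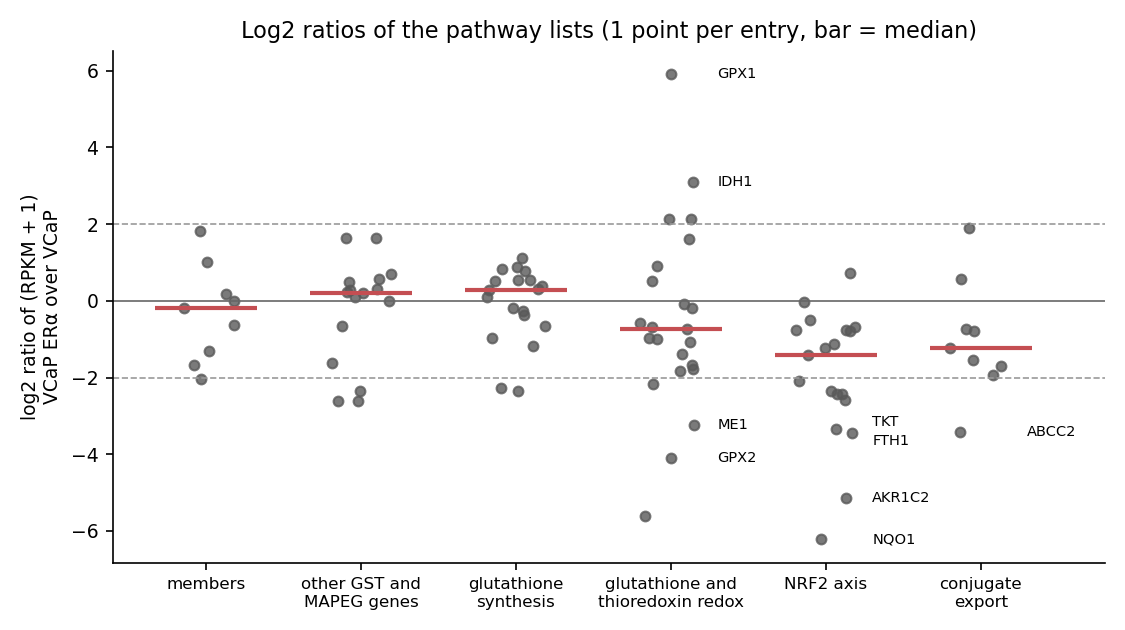
Log2 ratio of (RPKM + 1), VCaP ERα over VCaP, for the members and 5 pathway lists, with 1 point per entry, a bar at each median and dashed lines at -2 and 2; most genes past 3 in size are named. The NRF2 list has its median at -1.41 and no point above 2, and the redox list holds both GPX2 at -4.09 and GPX1 at 5.91. The value of GPX1 starts from a listed 0 in VCaP and depends on the added 1 RPKM.

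In the MEFs the mouse glutathione S-transferases, like most entries, differed little between wild type and NEAT1 KO. Neat1 had 29.5 RPKM in wild type against 2.01 in KO, in the direction of the labels. All 23 mouse genes of the family that were looked for were found, 13 of them at or above 1 RPKM, and 0 had a log2 ratio of KO over wild type past 1 in size, against 0.977% of all entries above 1 and 0.334% below -1. Gsto1 had 199 and 271 RPKM (log2 ratio 0.44) and Gstk1 had 2.12 and 3.44 RPKM, the largest difference at 0.51. Gstp1 (chromosome 19, 4035410 to 4037912) had 129 RPKM in wild type against 123 in KO (-0.06). Gsto1 and Gstp1 had the highest levels of the 23 genes in both libraries, and Gstp2, a close copy of Gstp1 that can share its reads, had 0.183 and 0.137 RPKM. Gsta4 had 6.68 and 5.15 RPKM (-0.32), Mgst1 had 30.0 and 30.6 RPKM (0.03) and Mgst3 had 29.4 and 30.4 RPKM (0.05). Of the mu class, Gstm5 had 24.5 and 27.7 RPKM, Gstm1 13.3 and 13.8 RPKM, and Gstm3 was listed at 0 in both. The mouse values were made from poly-A RNA on another annotation, so no level was compared between species.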

How the data were processed

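Total RNA of VCaP and VCaP ERα cells, depleted of ribosomal RNA, and poly-A RNA of wild-type and NEAT1 KO MEFs were sequenced, 1 library per group. The authors deposited RPKM values per entry, with no normalization between libraries stated. The submitters' processing notes name CASAVA 1.8 and the builds hg18 and mm10; the aligner and counter are not given in the sources used here. Coordinates are those of the human entries (hg18) or the mouse entries (mm10).

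Groups were taken from the sample titles. Each member was read from its entry of highest mean RPKM, and each other gene from an entry carrying its symbol alone where there was one. A pseudocount of 1 was added to the deposited RPKM values before log2 ratios were taken, which understates differences of low entries; every entry was kept and the limit was 2. Members and lists were chosen with earlier results of these data known. Named were all members, ESR1, 7 fixed pathway genes, the nearest expressed neighbours and the 3 entries closest to GSTP1. Also named were up to 4 of the highest and lowest genes of each pathway list at or above 1 RPKM. Marker lists are given by counts and sums, with a few genes named after their values were seen. Housekeeping genes and other neighbours of GSTP1 within 150 kb were added after their values were seen. So were other genes of the family with their values, and a few pathway genes. A few genes that the rule or the window takes in are not reported here. A reference for human sequences was not used, so none is printed. The alternatives were a pseudocount of 0.1, centring on the median log2 ratio of expressed entries, quantile normalization, the mean over the entries of a symbol, and a minimum of 1 RPKM. The scripts were tested on simulated data. The work was done in Python 3.11.15 with pandas 2.3.3 and numpy 2.4.6, and plots were drawn with matplotlib 3.10.9.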

Additional observations from a re-analysis of the deposited data

How the results depend on the processing

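With 1 library per condition no replicate could be left out, and a value was taken as unchanged within 1.5 times (a log2 difference of 0.58). No paired analysis was possible because each group holds 1 library and the result comes from no test. The number of members above 2 was 0 as deposited, 2 with a pseudocount of 0.1 and 1 after centring or quantile normalization; the number below -2 was 1, 2 and 0. The median of the members became 0.40 after centring. The log2 ratio of GSTP1 was 3.46 with the smaller pseudocount, which shows its dependence on the value added to 0, and 1.59 after centring. After quantile normalization it was 0.92, below the looser limit of 1 that it barely passed as deposited. Of 86 other pathway entries, 19 lay below -2 as deposited and 10 after centring or quantile normalization, and 4 lay above 2 as deposited, 9 with the smaller pseudocount and 8 after either scaling. Of 82 alternative values 46 stayed within the limit and 36 moved. Signs turned for the median of the members and for the GSTM4/GSTM2 entry (both -0.19 as deposited and 0.40 after centring) and for GSTM3 (-0.63 as deposited and 0.12 after quantile normalization). No counting error could be given, since depth is not given in the sources used here.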
